A study of Mus musculus with 6 samples.

Results

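The interferon regulatory factor (IRF) family was examined in hematopoietic stem cells (HSCs) of wild-type (WT) and *Irf1-/-* mice through 8 of its genes, *Irf1*, *Irf2*, *Irf3*, *Irf4*, *Irf5*, *Irf7*, *Irf8*, and *Irf9*. They were taken by symbol from a table of 26264 genes. Bulk RNA-seq had been performed on untreated HSCs of the LSK CD150+ CD48- phenotype, sorted from the bone marrow of female mice at 8 weeks of age, with 1 library for each of 3 WT and 3 *Irf1-/-* animals. WT mice were C57Bl/6, and *Irf1-/-* mice were of the strain B6.129S2-Irf1 tm1Mak/J, in which the gene is disrupted in every cell of the body. Effects that arise within HSCs can therefore not be told apart from effects of other *Irf1-/-* cells around them. Libraries are named by genotype and by the replicate numbers 2, 3, and 4. Between 43138521 and 59658080 reads per library fell on genes, and all levels below are normalized counts, that is, reads divided by a size factor of the library.

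IRFs are transcription factors that share a tryptophan-rich DNA-binding domain and bind repeats of GAAA, as in the interferon-stimulated response element (ISRE). Some members are made on demand, such as IRF1, whose gene is induced by interferons, whereas others wait in the cytoplasm until a kinase activates them or act only as part of a complex. In blood formation, IRF2 is known to keep HSCs from being driven into cycle by type I interferon, and IRF8 is known for its part in monocyte and dendritic cell development.

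The identity of the sorted cells was checked with marker genes. All 10 HSC markers were detected, and their summed level was between 157441 and 181977 normalized counts in the 6 libraries, with *Kit* as the most abundant gene. *Gzma* of NK cells and the globin genes *Hba-a1* and *Hbb-bs* were listed at 0 in all 6 libraries, and *Cd8a* of T cells did not exceed 2.59 normalized counts. Other genes of the same lists were detected, with means over the 6 libraries of 2714 for *Nkg7*, 1990 for *Epor*, and 234 for *Cd4*. A pair of WT libraries stood apart. In WT replicate 3, the plasma cell markers summed to 4879 normalized counts, mostly from *Jchain*, against 683 to 996 in the other 5 libraries. In WT replicate 4, the granulocyte markers summed to 5843, against 334 to 886. For *Irf4* and *Irf8*, values without these libraries are given below.

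All 8 IRF genes had a mean normalized count of at least 10, the minimum for testing, which 17404 genes met. A gene was called when its adjusted *P* in limma was under 0.05 and its log2 fold change was beyond 0.58 in either direction. Of the 8 IRF genes, 0 were called in either direction, where 1.91% of all genes tested were. 3 of the 8, *Irf1*, *Irf2*, and *Irf9*, had an unadjusted *P* under 0.05 in limma, where 16.5% of all genes did. The same 3 genes had no overlap between the libraries of the genotypes, where 19.9% of all genes had none. With no threshold on the fold change, 0 of the 8 had an adjusted *P* under 0.05 in limma, where 3.22% of all genes did. With the threshold, edgeR and DESeq2 also called 0 of the 8, and DESeq2 gave no adjusted *P* for *Irf4*. The 95% interval of the log2 fold change reached past 0.58 in 2 members, *Irf4* and *Irf8*.

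**Figure D1:**
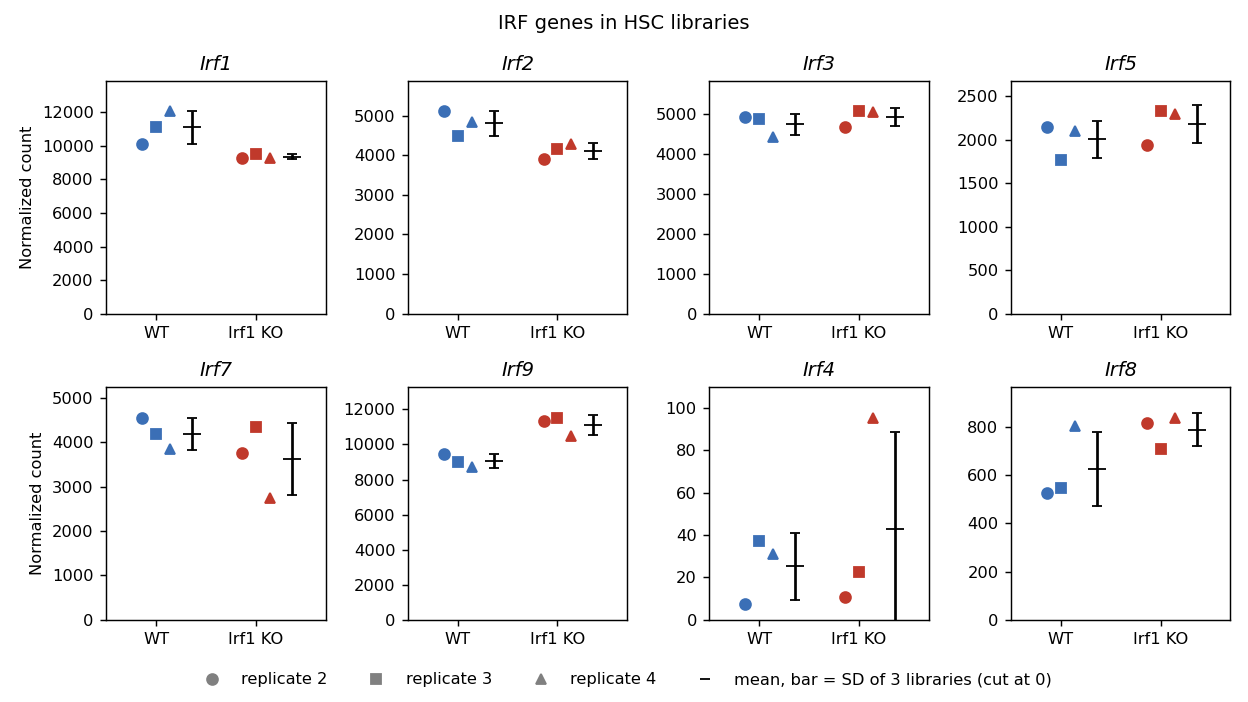
Normalized count (vertical axis, from 0) of each IRF gene in the 3 WT libraries (blue) and the 3 *Irf1-/-* libraries (red), with the replicate number given by the symbol. Black marks are the mean of 3 libraries and bars are the SD, which is cut at 0 for *Irf4*. The genotypes do not overlap for *Irf1*, *Irf2*, and *Irf9*, and overlap for the other 5 genes.

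*Irf1*, the targeted gene, encodes an activator that is itself induced by interferons. It had 10122, 11120, and 12057 normalized counts in WT replicates 2, 3, and 4 and 9267, 9524, and 9287 in *Irf1-/-* replicates 2, 3, and 4. The *Irf1-/-* libraries lay close together and below every WT library, and WT libraries were spread more widely. The means were 11100 ± 968 in WT HSCs and 9359 ± 143 in *Irf1-/-* HSCs (SD, *n* = 3 each), and the log2 fold change was −0.24 (SE 0.09, 95% interval −0.43 to −0.05), with an adjusted *P* of 0.170 in limma. An exact two-sided permutation test over the libraries gave *P* = 0.1, the smallest value that 3 against 3 can give. Counts were made over the whole gene, and which exons the allele removes was not given in the sources used here. The counts of *Irf1* therefore show that reads of the locus were present in *Irf1-/-* HSCs, at 84.3% of the WT mean, and do not by themselves check the genotype labels. Whether these transcripts were missing exons was not tested. Without WT replicates 3 and 4, the log2 fold change was −0.11, and WT replicate 2 was the WT library closest to the knockouts.

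The 3 genes whose pattern over the 6 libraries was most like that of *Irf1* were *Chic1*, *Ppp2r3c*, and *Akap9*. Their centred log2 values differed from those of *Irf1* by a root mean square of 0.04 each. *Ppp2r3c*, for example, had 1527, 1643, and 1746 normalized counts in WT replicates 2, 3, and 4 and 1419, 1355, and 1425 in *Irf1-/-* replicates 2, 3, and 4. As with *Irf1*, WT replicate 4 was the highest library and the knockouts were the lowest.

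*Irf2* encodes a factor that binds the same DNA sites as IRF1 and acts largely as a repressor. It had 5110, 4481, and 4851 normalized counts in WT replicates 2, 3, and 4 and 3897, 4151, and 4283 in *Irf1-/-* replicates 2, 3, and 4. Every knockout library was below every WT library, although *Irf1-/-* replicate 4 and WT replicate 3 were near each other. The means were 4814 ± 316 and 4111 ± 196 normalized counts (SD, *n* = 3 each), and the log2 fold change was −0.23 (SE 0.09, 95% interval −0.42 to −0.03, adjusted *P* = 0.217 in limma). The log2 fold changes of *Irf1* and *Irf2* were close with all 6 libraries but not without WT replicate 2, at −0.31 and −0.18, or without WT replicates 3 and 4, at −0.11 and −0.32. The ratio of *Irf1* to *Irf2* counts within a library, which does not depend on the size factor, was 1.98, 2.48, and 2.49 in WT replicates 2, 3, and 4 and 2.38, 2.29, and 2.17 in *Irf1-/-* replicates 2, 3, and 4. WT replicate 2 had the lowest ratio of the 6 libraries and WT replicates 3 and 4 the highest, so the genotypes overlapped.

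*Irf3*, *Irf5*, and *Irf7* encode the members that are activated by phosphorylation downstream of nucleic acid sensors and Toll-like receptors. *Irf3*, which is made constitutively in most cells, had 4906, 4875, and 4426 normalized counts in WT replicates 2, 3, and 4 and 4669, 5058, and 5049 in *Irf1-/-* replicates 2, 3, and 4. The genotypes overlapped, and *Irf3* was the member with the smallest absolute log2 fold change (0.06, SE 0.09, 95% interval −0.13 to 0.25, adjusted *P* = 0.830 in limma). *Irf5*, which acts downstream of MyD88, had 2149, 1766, and 2099 normalized counts in WT and 1935, 2327, and 2292 in *Irf1-/-* replicates 2, 3, and 4. WT replicate 3 was the lowest library and *Irf1-/-* replicates 3 and 4 were the highest, while *Irf1-/-* replicate 2 lay among the WT libraries. The log2 fold change of *Irf5* was 0.12 (SE 0.12, 95% interval −0.12 to 0.37, adjusted *P* = 0.676 in limma). With 1 library left out, it was between 0.04 and 0.21 for *Irf5* and between 0.01 and 0.10 for *Irf3*. In the RefSeq gene table of GRCm38.p6, *Irf5* overlaps *Tnpo3*, from which its reads may not have been told apart. For *Tnpo3*, named here because of this overlap, the log2 fold change was −0.02 (adjusted *P* = 0.966 in limma).

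*Irf7* encodes the member that amplifies the type I interferon response and is itself induced by interferon. It had 4562, 4184, and 3847 normalized counts in WT replicates 2, 3, and 4 and 3767, 4351, and 2743 in *Irf1-/-* replicates 2, 3, and 4. *Irf1-/-* replicate 4 was by far the lowest library, whereas *Irf1-/-* replicate 3 was above WT replicates 3 and 4, so the genotypes overlapped. *Irf7* had the widest spread of the 6 abundant members within *Irf1-/-* HSCs, with means of 4198 ± 358 in WT and 3620 ± 814 in *Irf1-/-* HSCs (SD, *n* = 3 each). The log2 fold change was −0.24 (SE 0.14, 95% interval −0.54 to 0.07, adjusted *P* = 0.459 in limma), and it rested on 1 library, since without *Irf1-/-* replicate 4 it was −0.05 and without *Irf1-/-* replicate 3 it was −0.38.

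*Irf9* encodes the DNA-binding subunit of ISGF3, a complex that forms after type I interferon. It had 9476, 8993, and 8691 normalized counts in WT replicates 2, 3, and 4 and 11350, 11535, and 10458 in *Irf1-/-* replicates 2, 3, and 4. Every knockout library was above every WT library, with a clear gap between them. The means were 9053 ± 396 and 11114 ± 576 normalized counts (SD, *n* = 3 each), so that the knockout mean was 123% of the WT mean. The log2 fold change was 0.30 (SE 0.08, 95% interval 0.12 to 0.48), with an adjusted *P* of 0.0765 in limma and an exact permutation *P* of 0.1, the smallest possible. *Irf9* was the member with the lowest *P* value in limma, and it did not pass the threshold. It had an adjusted *P* of 0.0163 after quantile normalization in limma and 0.0148 in DESeq2, over a range of 0.0148 to 0.485 among the 18 alternatives, and its log2 fold change was between 0.23 and 0.35 in all of them, below the threshold of 0.58.

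Neither *Irf9* nor *Irf1* was called, and their log2 fold changes had opposite signs. The ratio of *Irf9* to *Irf1* counts within a library was 0.936, 0.809, and 0.721 in WT replicates 2, 3, and 4 and 1.22, 1.21, and 1.13 in *Irf1-/-* replicates 2, 3, and 4. All WT libraries held fewer *Irf9* than *Irf1* counts, and all *Irf1-/-* libraries held more. The mean ratio was 0.822 ± 0.108 in WT and 1.19 ± 0.0535 in *Irf1-/-* HSCs (SD, *n* = 3 each). This ratio was chosen after the counts of both genes had been seen, so that its separation by genotype followed from theirs. It does not depend on how the libraries were scaled.

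*Irf4* and *Irf8* encode members found mainly in blood cells, which bind DNA poorly alone and act with partners such as PU.1 and BATF. *Irf4*, a factor of B cells, plasma cells, and dendritic cells, was near the limit of detection. It had 7.41, 37.2, and 31.2 normalized counts in WT replicates 2, 3, and 4 and 10.7, 22.5, and 95.5 in *Irf1-/-* replicates 2, 3, and 4. *Irf1-/-* replicate 4 was the highest library and WT replicate 2 the lowest, and the genotypes overlapped widely. These levels came from 9 reads in WT replicate 2 up to 92 reads in *Irf1-/-* replicate 4. The log2 fold change on the scale of log2(normalized count + 1) was 0.45 (SE 0.79, 95% interval −1.25 to 2.16, adjusted *P* = 0.857 in limma), and it turned to −0.40 when *Irf1-/-* replicate 4 was left out and to −0.24 when WT replicate 2 was. Without WT replicate 3 it was 0.86, without WT replicate 4 it was 0.73, and without both it was 1.82. edgeR gave 0.78 and DESeq2 0.77. With this spread between libraries of the same genotype, a difference in *Irf4* was not resolved. WT replicate 3, where the summed level of plasma cell markers was high, had the second highest *Irf4* level. That sum came mostly from *Jchain*, with 4071 normalized counts in that library and between 6.58 and 33.0 in the other 5. *Mzb1* was also highest there, at 114 against 9.05 to 32.2. *Prdm1*, at 134 against 123 to 196, and *Sdc1*, at 560 against 499 to 750, were within the range of the other 5. *Jchain* had the highest mean of these 4 markers through that library alone, and in each of the other 5 libraries *Sdc1* exceeded *Jchain*. The part of such cells in the level of *Irf4* was not tested, and fewer cells of a type and less RNA per cell cannot be told apart in bulk samples.

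*Irf8*, a factor of monocytes, dendritic cells, and B cells, had 524, 547, and 803 normalized counts in WT replicates 2, 3, and 4 and 814, 709, and 838 in *Irf1-/-* replicates 2, 3, and 4. WT replicate 4 lay among the knockouts, and WT replicates 2 and 3 lay below all other libraries. The means were 624 ± 155 and 787 ± 68.3 normalized counts (SD, *n* = 3 each), and the log2 fold change was 0.36 (SE 0.17, 95% interval −0.01 to 0.73, adjusted *P* = 0.326 in limma). Without WT replicate 4, the log2 fold change was 0.55 with an adjusted *P* of 0.0552 in limma, over a range of 0.0552 to 0.708 among the 18 alternatives. Without WT replicate 3, it was 0.28 (adjusted *P* = 0.644 in limma), and without both, it was 0.58 (adjusted *P* = 0.216 in limma). WT replicate 4 was also the library in which the summed level of the 4 plasmacytoid dendritic cell markers was highest, at 197 normalized counts against 36.1 to 62.3 in the other 5. *Ly6d*, one of these markers, was at 59.2 there, at 5.63 in WT replicate 3, and at 0 in the other 4 libraries, while *Ccr9* was the most abundant of the 4 on average. The LSK phenotype is negative for lineage markers such as CD11b and Gr-1, and the part of such cells, or of granulocytes, in the level of *Irf8* was not tested.

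**Figure D2:**
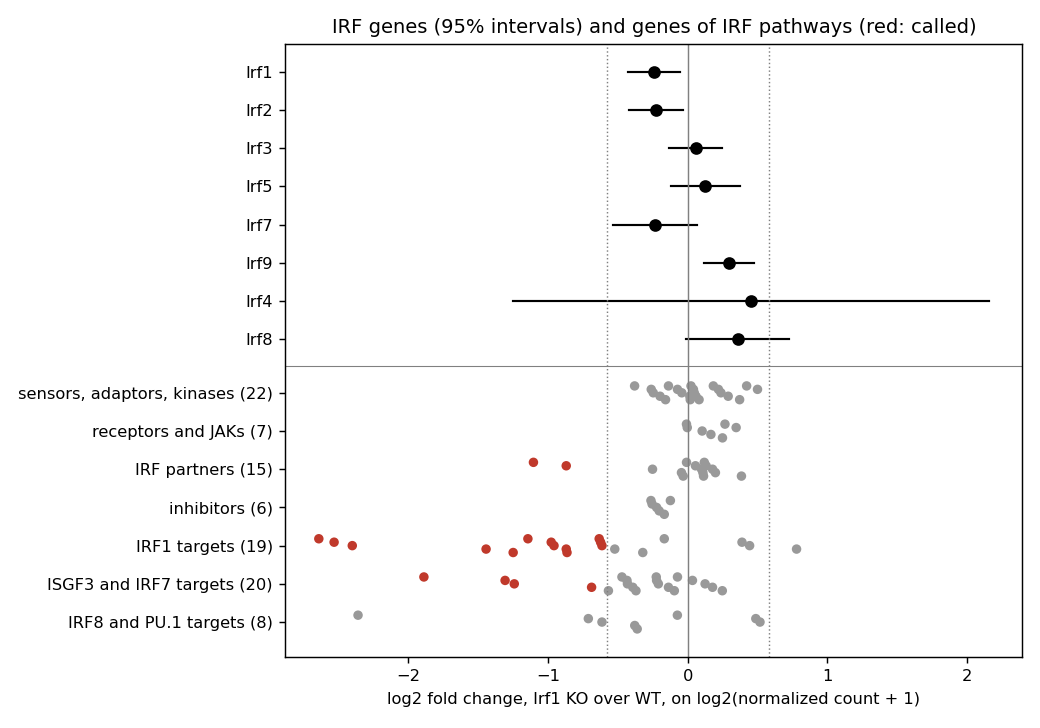
Log2 fold change of *Irf1-/-* over WT HSCs (horizontal axis, on log2(normalized count + 1)) of the 8 IRF genes with 95% intervals (black), and of single genes of 7 lists (points, red where called, with the number of genes tested in brackets). Dotted lines mark an absolute value of 0.58. No IRF gene passes it with its whole interval, and the called genes are among the partners, the IRF1 targets, and the ISGF3 and IRF7 targets, all on the lower side.

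Levels of different members were compared per kilobase of the longest annotated transcript. *Irf1* ranked first in both genotypes, with 4336 to 5642 normalized counts per kilobase over the 6 libraries, and *Irf9* followed with 2937 to 3898. *Irf3* came after them with 2179 to 2490. *Irf2* (1569 to 2057) and *Irf7* (1226 to 2039) followed *Irf3* and were the only neighbours in the order whose ranges over the 6 libraries overlapped. *Irf5* was lower with 788 to 1038, *Irf8* with 184 to 294, and *Irf4* was last with 1.57 to 20.3 normalized counts per kilobase. The order of the 8 members by mean level was the same in WT and in *Irf1-/-* HSCs. Per kilobase of coding sequence, *Irf2* (4250) and *Irf3* (3834) changed places and the other 6 members kept theirs. Among 13862 tested genes with a transcript length, 94.4% had a lower mean level per kilobase than *Irf1* and 90.9% a lower one than *Irf9*, whereas 43.4% were lower than *Irf8* and 7.20% lower than *Irf4*.

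The summed level of the 8 members was close in the genotypes, at 15519 ± 188 normalized counts per kilobase in WT and 15095 ± 582 in *Irf1-/-* HSCs (SD, *n* = 3 each). Shares of single members in this sum were described and not tested. *Irf1* made up 30.4, 34.0, and 36.0% of this sum in WT replicates 2, 3, and 4 and 29.2, 28.3, and 29.7% in *Irf1-/-* replicates 2, 3, and 4. *Irf9* made up 20.5, 19.9, and 18.8% in WT and 25.8, 24.7, and 24.1% in *Irf1-/-* replicates 2, 3, and 4. For both genes the genotypes did not overlap, with *Irf1* taking the smaller share and *Irf9* the larger share in the knockouts, although the shares of *Irf1* in WT replicate 2 and *Irf1-/-* replicate 4 were near each other. *Irf2* took 12.5 ± 0.703% in WT and 11.0 ± 0.687% in *Irf1-/-* HSCs, and its share in *Irf1-/-* replicate 4 nearly equalled that in WT replicate 3. *Irf7* ranged from 8.37% in *Irf1-/-* replicate 4 to 13.1% in WT replicate 2.

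**Figure D3:**
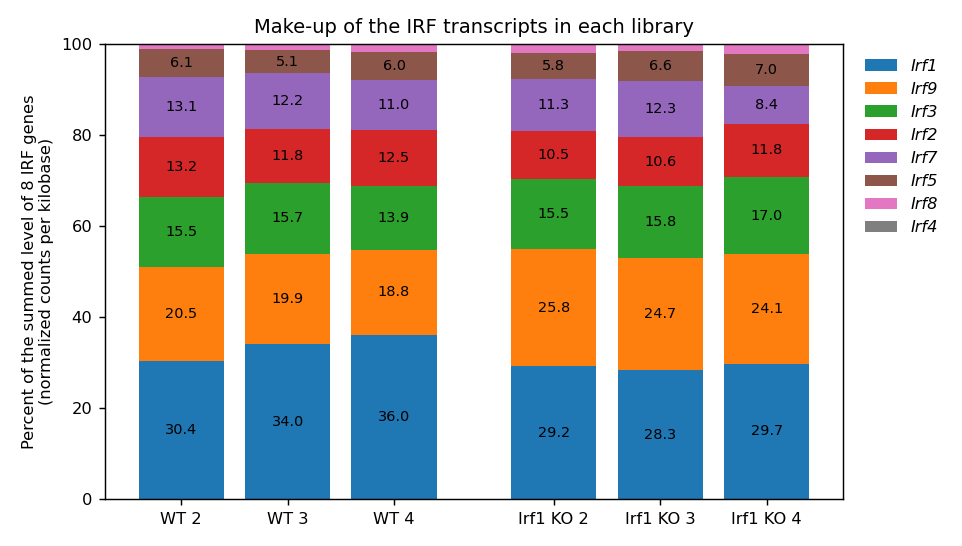
Share of each IRF gene (percent, vertical axis) in the summed level of the 8 genes, in normalized counts per kilobase, for each of the 6 libraries (horizontal axis). *Irf1* takes 30.4 to 36.0% in WT and 28.3 to 29.7% in *Irf1-/-* libraries, and *Irf9* takes 18.8 to 20.5% and 24.1 to 25.8%.

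The genes around the IRFs were followed from the interferons to the targets. Of 21 interferon genes, only *Ifnb1* and *Ifnl3* had a mean normalized count of at least 10, neither was called, and no library exceeded 56.3 normalized counts for either. Of 22 sensors, adaptors, and kinases that activate IRF3, IRF5, and IRF7, 0 were called by limma, where 0.96% of all genes were called higher and 0.954% lower. The most abundant of them, *Irak1*, *Ikbkb*, *Ddx58*, and *Myd88*, had log2 fold changes between −0.07 and 0.04. Of the 22 genes, 7 were higher and 1 was lower in every knockout library than in every WT library. Among all genes tested, 19.9% had no overlap between the genotypes, in either direction. For *Irak2*, named after its values had been seen, the log2 fold change was 0.50 (adjusted *P* = 0.0527 in limma), and it was called without *Irf1-/-* replicate 3, at 0.61 (adjusted *P* = 0.0308 in limma). Of 7 interferon receptors and Janus kinases and of 6 inhibitors of IRFs, 0 were called by limma, with median log2 fold changes of 0.17 and −0.21, against −0.0028 over all genes tested. Of the 7 receptors and kinases, 4 were higher and 0 lower in every knockout library than in every WT library. Of the 6 inhibitors, 0 were higher and 4 lower.

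Of 15 tested partners of IRFs, 2 were called lower and 0 higher, where 0.954% and 0.96% of all genes tested were. *Batf2*, one of the 2, dimerizes with IRF1 in activated macrophages. It had 1049, 859, and 927 normalized counts in WT replicates 2, 3, and 4 and 519, 366, and 440 in *Irf1-/-* replicates 2, 3, and 4. Its level was lower in every knockout library (log2 fold change −1.10, SE 0.16, adjusted *P* = 0.00193 in limma). Without the trend in limma, it was not called (adjusted *P* = 0.103), and 0 of the partners were. The ETS partner of IRF4 and IRF8, PU.1, is encoded by *Spi1*, named after its values had been seen, whose log2 fold change was 0.13 (adjusted *P* = 0.542 in limma).

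Of 19 textbook IRF1 target genes, 13 were called lower and 0 higher, where 0.954% and 0.96% of all genes tested were. The median log2 fold change of the 19 was −0.86, and without the trend in limma 4 of them were called lower. In contrast to the *Irf1* transcript, the largest of these differences were several-fold. *Casp1* had 2031, 2008, and 2058 normalized counts in WT and 287, 290, and 412 in *Irf1-/-* replicates 2, 3, and 4 (log2 fold change −2.64, SE 0.15, adjusted *P* = 1.89e-07 in limma). *Il18bp*, *Il12rb1*, and *Ciita* had log2 fold changes of −2.53, −2.40, and −1.44 and were also lower in every knockout library. Among the abundant targets not called were *Tap2* (−0.52), *Il15* (0.39), and *Socs1* (−0.17). *Tap2* was called lower when *Irf1-/-* replicate 4 was left out (−0.62) and when WT replicate 2 was left out (−0.68).

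Of 20 textbook ISGF3 and IRF7 target genes, 4 were called lower and 0 higher, where 0.954% and 0.96% of all genes tested were. The median log2 fold change of the 20 was −0.30. The 4 called genes were *Ifit3* (−1.89), *Oas3* (−1.31), *Mx1* (−1.24), and *Ifit2* (−0.69). All 4 lost their calls in limma without the trend. *Mx1* had an adjusted *P* of 0.0368 in limma and was not called in 8 of the 18 alternatives. These included leaving out any 1 library other than *Irf1-/-* replicate 3, with an adjusted *P* between 0.0654 and 0.131 in limma. *Isg15*, named after its values had been seen, was called lower only without *Irf1-/-* replicate 3 (−0.79). The order of the *Irf1-/-* libraries in *Irf7*, with replicate 3 highest and replicate 4 lowest, was shared by 13 of these 20 genes and by 16.5% of all genes tested. The order of the WT libraries in *Irf7*, with replicate 2 highest and replicate 4 lowest, was shared by 6 of the 20 and by 14.5% of all genes tested. The *Irf1-/-* order was shared by 6 of 22 sensors, adaptors, and kinases, 4 of 15 partners, and 5 of 6 inhibitors. It was also shared by 3 of 19 IRF1 targets, 1 of 7 receptors and Janus kinases, and 2 of 8 IRF8 and PU.1 targets. In the same lists, the WT order was shared by 8 of 22, 3 of 15, 1 of 6, 5 of 19, 0 of 7, and 1 of 8. Of the 2 interferon genes tested, 0 shared either order. Some genes are on more than 1 list. These orders were looked up after the counts of *Irf7* had been seen and are a description of 3 libraries each. Of 8 textbook IRF8 and PU.1 targets in myeloid cells, 0 were called by limma, where 1.91% of all genes tested were. DESeq2 called 1 of the 8 lower, *Ctss* (−0.60).

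Promoter sequences of RefSeq (GRCm38.p6, from 250 bases before to 50 bases after each annotated start) were searched for the letters of the gamma-activated site (GAS), TTCNNNGAA, which read the same on both strands, and for those of the ISRE, GAAANNGAAA, on both strands. All 8 IRF genes had at least 1 promoter in the table. GAS letters were in the promoters of 3 of the 8, *Irf1*, *Irf2*, and *Irf8*, and ISRE letters in 1 of the 8, *Irf2*. Of all 32851 promoters, 8.30% held the GAS letters and 3.44% the ISRE letters. Counted by gene, as for the 8 members, 8.38% of 13682 tested genes held the GAS letters and 3.70% the ISRE letters. The windows around the GAS letters are shown for the 3 members that hold them, with the letters in capitals and each sequence on the strand of its gene. They lie at chr11:53769899-53769957 for *Irf1*, chr8:46739496-46739554 for *Irf2*, and chr8:120736162-120736220 for *Irf8*, all on the plus strand, and the letters end 81, 215, and 162 bases before the start. *Irf8* holds GAS letters at 1 further place, nearer to the start.
Irf1: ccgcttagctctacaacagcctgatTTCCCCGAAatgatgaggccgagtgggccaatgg
Irf2: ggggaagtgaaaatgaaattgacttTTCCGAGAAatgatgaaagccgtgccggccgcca
Irf8: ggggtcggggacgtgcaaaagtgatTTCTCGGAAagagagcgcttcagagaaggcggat

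The ISRE letters of *Irf2* lie just before its GAS letters and do not overlap them. Among genes called lower that had a promoter in the table, 30 of 117 (25.6%) held ISRE letters, against 5 of 122 genes called higher (4.10%). Of the IRF1 targets called lower that had a promoter in the table, 2 of 8 held ISRE letters, and *Casp1* and *Il18bp*, with the largest differences, held none. Of the whole list of IRF1 targets, 3 of 10 held them. Of the ISGF3 and IRF7 targets, 2 of 3 called lower and 9 of 15 on the whole list held them. The window of *Irf2* is shown beside those of *Gbp2* and *B2m*, called IRF1 targets, and *Ifit3* and *Oas3*, called ISGF3 targets, with the ISRE letters in capitals, read on the opposite strand in *Gbp2* and *Ifit3*. These 4 genes were named after their values had been seen, and *Ifit3* holds the letters at 1 further place. They lie at chr8:46739495-46739538, chr3:142620579-142620638, chr2:122147523-122147582, and chr19:34583348-34583407 on the plus strand and at chr5:120777700-120777759 on the minus strand. A match of letters is a description of the sequence and does not show that a factor was bound.
Irf2: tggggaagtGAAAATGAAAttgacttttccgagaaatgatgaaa
Gbp2: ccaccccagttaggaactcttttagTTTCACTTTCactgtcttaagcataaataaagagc
B2m: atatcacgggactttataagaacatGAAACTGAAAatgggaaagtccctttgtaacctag
Ifit3: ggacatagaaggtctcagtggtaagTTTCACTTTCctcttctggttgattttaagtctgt
Oas3: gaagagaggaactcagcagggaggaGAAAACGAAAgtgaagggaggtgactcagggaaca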

How the data were processed

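Samples were grouped by the genotype in the labels, with the replicate numbers 2, 3, and 4 given there. The authors deposited a signal made from counts. Counts of htseq-count had been divided by 1 DESeq2 size factor per library. Reads had been trimmed with Trim Galore and aligned with HISAT2 to build mm39, according to the submitters' processing notes, and versions, annotation, and strand setting were not given in the sources used here. Within a tolerance of 0.1 reads, 100% of the values gave whole reads after division by the smallest step of their library, so reads were recovered. Libraries had no molecular identifiers, so reads are not independent molecules.

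The test between genotypes was that of limma 3.58.1 under R 4.3.3, with a linear model per gene and moderated variances that follow the mean level. Values entered as log2(normalized count + 1), genes needed a mean of at least 10, and *P* values were adjusted over all 17404 genes with the Benjamini-Hochberg method. A fold change on this scale understates that of genes with low counts. edgeR 4.0.16 (quasi-likelihood test), which called 165 genes higher and 162 lower, and DESeq2 1.42.0, which called 295 and 209, were alternatives on the recovered reads. limma called 167 and 166. Libraries of 1 genotype differed by more than counting noise (chi-square per gene between 16.0 and 30.0). The other alternatives concerned the pseudocount, the filter, the trend, the scaling, a replicate block, each library left out, the fold threshold, coding length for levels, and, chosen after seeing the data, WT replicates 3 and 4 left out together.

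Lengths came from the longest GENCODE vM1 transcript of each symbol, which is of an older build and was used for lengths only. Pathway lists were textbook lists, and markers covered HSCs, B, plasma, T, and NK cells, monocytes or macrophages, dendritic cells, granulocytes, and erythroid and megakaryocytic cells. The members and lists were chosen with earlier results of these data known. Genes named are the members, called genes of each list (all, or the 4 with the largest absolute log2 fold change) beside up to 4 abundant genes that were not called, the nearest genes of *Irf1*, and markers, and other genes are said to have been named after their values had been seen. One further gene of the family is not reported here. Figures were drawn with matplotlib 3.10.9.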

Additional observations from a re-analysis of the deposited data

How the results depend on the processing

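None of the IRF genes tested was called in any of the 18 alternatives, and 7 of the 8 kept the sign of their log2 fold change. *Irf4* was tested in 17 of them, since it lay below the filter of 50, and had no adjusted *P* in DESeq2. *Irf4* was also the gene that changed sign, and its value was between −0.40 and 1.13 with 1 library left out. With no fold threshold, 1 member, *Irf9*, had an adjusted *P* under 0.05 after quantile normalization, with the replicate block, and in DESeq2. With the replicate block, its adjusted *P* in limma was 0.0262 and the calls were 219 higher and 196 lower. Libraries with the same number were not shown to be pairs, since their deviations from the group means correlated across genes at −0.09 for number 2, 0.25 for number 3, and 0.15 for number 4.

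Without the trend in limma, 7 genes were called higher and 33 lower, with 0 of the partners, 4 of the IRF1 targets, and 0 of the ISGF3 and IRF7 targets. DESeq2 called 295 higher, 1 IRF1 target higher (*Cdkn1a*), and 1 IRF8 and PU.1 target lower (*Ctss*). With 1 library left out, between 83 and 305 genes were called higher and between 105 and 265 lower, and between 0 and 1 of the sensors, adaptors, and kinases higher. Without WT replicates 3 and 4, where the spread within WT rests on that of the knockouts, 103 genes were called higher and 87 lower, with 2 of the ISGF3 and IRF7 targets lower and 1 IRF8 and PU.1 target higher (*Itgam*). The cause of these changes was not tested. The largest shift of the median log2 fold change of all genes under another scaling was to −0.0338, with median centring. With 3 libraries per genotype, differences in a gene as low as *Irf4* could not be resolved.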

Other observations

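The summed normalized counts of the marker genes over the 6 libraries were 2667 to 3103 for B cells, 146 to 371 for T cells, 2673 to 3723 for NK cells, 24266 to 33488 for monocytes or macrophages (mostly from *Lyz2*), 210 to 424 for conventional dendritic cells, and 2217 to 3828 for erythroid cells. For megakaryocytes, they were 45307, 57853, and 43180 in WT replicates 2, 3, and 4 and 38989, 23826, and 34588 in *Irf1-/-* replicates 2, 3, and 4, lower in every knockout library. This sum came mostly from *Itga2b*, which was not called (log2 fold change −0.56, adjusted *P* = 0.0922 in limma). *Gp9* (−0.27) and *Ppbp* (−0.22) overlapped between the genotypes and were not called. *Pf4* of this list (log2 fold change −1.11, adjusted *P* = 0.00334 in limma) and *Klf1* of the erythroid list (−0.72, adjusted *P* = 0.0361 in limma) were called lower. *Fgd5* was the only one of the 10 HSC markers that was called, where 1.91% of all genes tested were. It had 3918, 3818, and 3522 normalized counts in WT replicates 2, 3, and 4 and 6752, 6881, and 6387 in *Irf1-/-* replicates 2, 3, and 4 (log2 fold change 0.83, adjusted *P* = 9.13e-05 in limma). *Procr* (0.52, adjusted *P* = 0.0112 in limma) and *Ly6a* (−0.43, adjusted *P* = 0.0245 in limma) missed only the fold threshold. Of the 10 markers, 5 were higher and 1 was lower in every knockout library than in every WT library, where 19.9% of all genes had no overlap.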
